A study of Homo sapiens with 18 samples.

Results

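The JmjC histone lysine demethylases examined here are 9 genes, KDM6B, KDM7A, KDM6A, KDM3A, KDM4A, KDM4B, KDM4C, KDM5A and KDM5B, among 18377 genes measured in A549 cells. A549 is an established human line from a non-small cell lung cancer. The members are named family members, each represented by the probe set with the highest mean over all arrays among those with a single gene symbol. That mean is the only measured value the members' probe sets were chosen by, and it decided nothing, because each of the 9 genes had exactly 1 such probe set. The 9 genes themselves were chosen with earlier results of these data known. None of the 9 was lost to a filter on low values, since no such filter was applied.

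RNA was measured on 18 Affymetrix whole-transcript arrays in 6 groups of 3, which the labels call biological replicates. The cells carried either control siRNA (siControl) or siRNA against both atypical protein kinases C, PKCiota and PKCzeta (siPKCiz), whose genes are PRKCI and PRKCZ. In each arm 1 group was untreated, and the other groups received 250 pM TGFβ for 1 h after serum starvation, were washed, and stayed 7 h or 23 h longer in medium with 0.2% FBS, giving samples 8 h and 24 h after treatment. All cells were of the same line, were grown in F-12K medium with 10% FBS before that, and all were transfected; for the untreated groups no time is labelled. Both kinases were targeted together in 1 cell line, so the arrays hold no group with only 1 kinase silenced, and the siRNA sequences are not analysed here. The comparisons address how TGFβ changes expression in these cells and whether silencing of atypical PKC alters that change.

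JmjC demethylases are dioxygenases that use iron and 2-oxoglutarate to remove methyl groups from histone lysines, and they need molecular oxygen to do so. KDM6A and KDM6B remove methylation from H3K27, the mark that the Polycomb complex PRC2 sets on silenced genes. KDM7A acts on low methylation states of H3K9 and H3K27, KDM3A on low methylation states of H3K9, and the KDM4 enzymes on higher methylation states of H3K9 and H3K36. KDM5A and KDM5B remove H3K4 methylation, a mark of active promoters. TGFβ signals through receptor kinases to SMAD transcription factors and drives epithelial cells towards a mesenchymal state. The arrays measure transcripts only, and histone marks were not analysed here.

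Promoter windows from RefSeq (GRCh38.p14), running from 250 bases before to 50 bases after an annotated start, were found for all 9 members, 11 windows in all. A set of 3 motifs was searched on both strands: the AP-1 site TGANTCA, the SMAD box CAGAC, and the core of the hypoxia-inducible factor site, ACGTG or GCGTG. Of all 35116 windows, 7.71% held an AP-1 site, 45.3% a SMAD box and 48.4% a hypoxia core. The windows of the 3 genes whose group means varied most are printed here with that of KDM4C, the member that fell after TGFβ, 5′ to 3′ in the direction of the gene, with every match in capitals. KDM6B has a window at chr17:7833967-7834266 (+) and another at chr17:7839667-7839966 (+), KDM7A at chr7:140176934-140177233 (-), KDM3A, in the second of its overlapping windows, at chr2:86441211-86441510 (+), and KDM4C at chr9:6757723-6758022 (+).
KDM6B, first window: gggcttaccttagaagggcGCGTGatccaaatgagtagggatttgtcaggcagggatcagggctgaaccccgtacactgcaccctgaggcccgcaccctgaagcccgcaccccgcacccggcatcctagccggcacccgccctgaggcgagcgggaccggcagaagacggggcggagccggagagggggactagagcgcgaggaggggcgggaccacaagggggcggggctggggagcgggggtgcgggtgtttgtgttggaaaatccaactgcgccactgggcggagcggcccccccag
KDM6B, second window: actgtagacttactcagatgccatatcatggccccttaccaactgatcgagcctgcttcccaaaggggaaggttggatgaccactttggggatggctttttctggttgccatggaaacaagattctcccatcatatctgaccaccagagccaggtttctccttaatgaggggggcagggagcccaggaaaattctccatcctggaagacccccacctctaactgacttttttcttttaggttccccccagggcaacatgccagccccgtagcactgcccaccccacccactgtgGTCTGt
KDM7A: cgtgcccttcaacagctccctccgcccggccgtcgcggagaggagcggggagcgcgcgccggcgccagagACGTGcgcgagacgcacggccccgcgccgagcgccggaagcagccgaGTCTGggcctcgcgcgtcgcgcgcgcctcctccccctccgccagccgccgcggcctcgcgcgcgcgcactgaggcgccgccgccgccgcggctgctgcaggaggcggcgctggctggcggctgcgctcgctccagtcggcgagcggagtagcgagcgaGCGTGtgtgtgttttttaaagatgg
KDM3A, second window: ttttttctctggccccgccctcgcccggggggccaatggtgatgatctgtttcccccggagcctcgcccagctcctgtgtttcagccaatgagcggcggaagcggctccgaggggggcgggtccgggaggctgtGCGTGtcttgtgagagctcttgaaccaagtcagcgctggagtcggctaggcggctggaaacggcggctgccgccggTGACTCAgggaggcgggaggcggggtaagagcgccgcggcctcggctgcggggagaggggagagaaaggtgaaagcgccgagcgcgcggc
KDM4C: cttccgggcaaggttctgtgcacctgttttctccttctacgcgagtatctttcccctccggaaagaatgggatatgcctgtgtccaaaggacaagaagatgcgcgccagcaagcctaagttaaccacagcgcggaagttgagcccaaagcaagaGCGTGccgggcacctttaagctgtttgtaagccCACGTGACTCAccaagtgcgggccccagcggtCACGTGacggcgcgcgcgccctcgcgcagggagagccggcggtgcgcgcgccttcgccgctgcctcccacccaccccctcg
Positions below count from 1 at the start site, with no 0, and negative numbers lie before it. The first KDM6B window held 1 match, a hypoxia core at -231, and the second held 1, a SMAD box at 45. KDM7A had a SMAD box at -133 and hypoxia cores at -180 and 26, in a window with 77.0% G and C and 56 CpG dinucleotides, the highest values among the members. The KDM3A window had a hypoxia core at -116 and an AP-1 site at -40; its other window, chr2:86441121-86441420 (+), shares 210 bases with this one and has no AP-1 site. The KDM4C window had an AP-1 site at -59 and 5 matches to the hypoxia core at 3 places: those at -63 and -62 and those at -31 and -30 are the same letters read on both strands, and 1 more is at -96. The AP-1 site overlaps the pair at -63 and -62. Across the 11 windows an AP-1 site occurred in 3 (27.3%; KDM6A, KDM3A and KDM4C), a SMAD box in 6 (54.5%) and a hypoxia core in 10 (90.9%). The KDM3A hypoxia core lies in the bases its windows share and is counted in each. The member windows were 53.0% to 77.0% G and C, beside a median of 58.7% over all windows. They held 2 to 56 CpG dinucleotides, beside a median of 14. Only the second KDM6B window lay below either median. Both forms of the hypoxia core hold CG, and the part of base content in its share was not tested. A match is a match of letters only.

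The values are intensities on the linear scale of RMA, the array summary the submitters used, and changes are given on the log2 scale with the standard error (SE) of a fit over all 18 arrays. A gene is said to have risen, fallen or been called where its Benjamini-Hochberg adjusted p over all 18377 genes was under 0.05 in limma. Intensities of different probe sets are not set against each other. The 18 array medians, over all 28869 probe sets, lay between 156.1 and 160.7. Before any member is described, 2 facts about the arrays are needed. PRKCI was lower in siPKCiz in each of 9 same-numbered pairs of arrays, at 17.4% to 23.3% of its siControl value (mean log2 difference -2.24 ± 0.052 SE, adjusted p = 1.98e-15), so its level matched the arm in every sample. Ratios by replicate number, here and below, follow the labels only, because a check given in the last section found no pairing of arrays by number. PRKCZ differed by replicate: in replicates 2 and 3 it was at 33.1% to 40.0% of siControl, but in replicate 1 at 91.4% without ligand, 82.3% at 8 h and 68.2% at 24 h. In replicate 1 its siControl intensities were 265, 309 and 302 in that order, below those of replicates 2 and 3 (398 to 490.0). Its siPKCiz intensities in replicate 1 were 242, 254 and 206, above those of replicates 2 and 3 (142 to 189). Replicate 1 also correlated less with the other replicates, at 0.992 to 0.995 over all genes, than replicates 2 and 3 did with each other, at 0.996 to 0.998, in all 6 groups. Silencing differences that were called for a demethylase are therefore given with and without replicate 1. For other genes only some silencing differences are printed. These are also given without replicate 1 where that ended or brought a call or moved the value by over 1.5 times. Differences that are not printed can depend on replicate 1 as well. For ANGPTL4 the mean over conditions was -0.26 (adjusted p = 0.427) with all arrays and -0.62 (adjusted p = 1.31e-05) without replicate 1. The part of PRKCZ in these differences was not tested. As a check of the ligand, CDH1 (E-cadherin), an epithelial gene known to fall after TGFβ, fell by 0.96 at 8 h and by 1.62 at 24 h in siControl. In siPKCiz it changed by -0.77 and -1.37. Averaged over conditions, CDH1 (0.49, adjusted p = 0.00177) and the epithelial genes EPCAM (0.76) and KRT19 (0.25) were higher in siPKCiz. KRT8 (0.08, and 0.04 without replicate 1) and KRT18 (0.1, and 0.06 without it) were not called in either fit. The part of these differences in the results was not tested. Marker genes were set, by their mean over the arrays, against the median of the 18377 genes. All 5 epithelial genes lay above it, as did 1 of 5 leukocyte genes (CD68) and 0 of 5 endothelial genes. Of 6 fibroblast genes 1 did (COL1A1, which rose by 1.17 at 8 h). That median is higher than the array medians over all probe sets, which reached 7.33 on the log2 scale. The fibroblast genes LUM (mean log2 7.91) and COL3A1 (7.38) lay above 7.33. The summed intensity of the fibroblast markers was 918 to 954 in untreated siControl arrays, 1321 to 1514 at 8 h and 1421 to 1844 at 24 h, and 994 to 1084, 1248 to 1465 and 1820.4 to 2035 in siPKCiz; its part in the results was not tested.

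After TGFβ, 5 demethylases rose and 1 fell in siControl cells at 8 h, and KDM6B led with a 3.40-fold rise. The genes that rose were KDM6B, KDM7A, KDM3A, KDM5A and KDM5B, and KDM4C fell; KDM6A, KDM4A and KDM4B were not called. Among all genes 11.4% were called in this comparison, 5.17% rising and 6.18% falling, against 6 of the 9 members. Because the members were chosen with earlier results of these data known, counts of members called are not an independent test of the family. Of 19 other measured genes with a JmjC domain, 31.6% were called in this comparison. At 24 h 4 members had risen (KDM6B, KDM7A, KDM3A and KDM5A) and 0 had fallen, beside 12.3% of all genes called, 5.85% rising and 6.46% falling. In siPKCiz cells 2 members had risen at 8 h (KDM6B and KDM3A; 6.48% of all genes were called) and 3 at 24 h (KDM6B, KDM3A and KDM5B; 10.7%). The median change over the 9 members was 0.24 at 8 h and 0.25 at 24 h in siControl, and 0.21 and 0.20 in siPKCiz, where the median over all genes lay within 0.01 of 0. The RNA came from whole cultures, so fewer cells of a kind and less RNA per cell cannot be told apart. Each time point is compared with the same untreated arrays, so the 8 h and 24 h changes of an arm are not independent of each other. Members whose treated arrays all lay on 1 side of all untreated arrays numbered 8 of 9 at 8 h and 6 at 24 h in siControl, beside 25.3% and 25.5% of all genes, and 5 and 4 in siPKCiz, beside 25.0% and 31.0%.

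**Figure D1:**
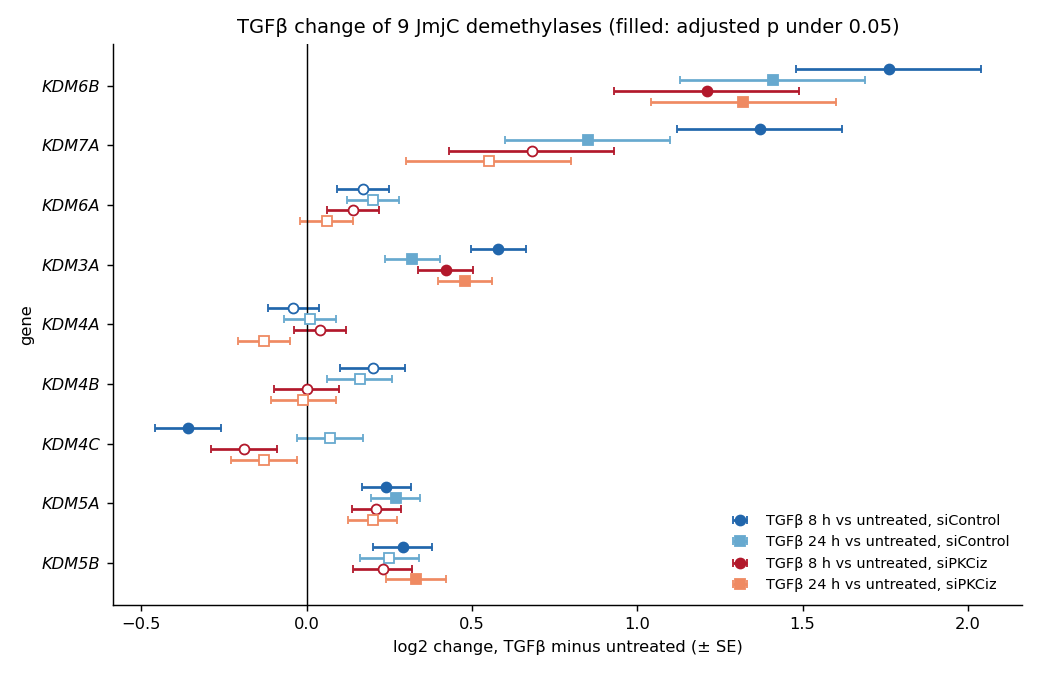
Log2 change after TGFβ (horizontal axis, treated minus untreated) for the 9 demethylases in each arm and at each time; points are estimates from the fit over 18 arrays, bars are ± SE, and filled points were called at adjusted p under 0.05. KDM6B lies furthest to the right in all 4 comparisons, from 1.21 to 1.76, and KDM4C at 8 h in siControl (-0.36) is the only called point left of 0.

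KDM6B, the inducible H3K27 demethylase also known as JMJD3, had the widest range of group means among the members, 2.06 on the log2 scale. Its intensity in siControl cells was 400.4, 508 and 549.6 in replicates 1, 2 and 3 without ligand, 1769, 1514 and 1637 at 8 h, and 734, 1782 and 1604 at 24 h. In siPKCiz cells it was 358, 405 and 421 without ligand, 1331, 690.2 and 822 at 8 h, and 1436, 819 and 809.8 at 24 h. Every treated array of an arm was above every untreated array of that arm, and replicate 1 was the array set apart at 24 h, low in siControl and high in siPKCiz. The rise in siControl was 1.76 ± 0.28 at 8 h (3.40-fold, adjusted p = 0.000358) and 1.41 ± 0.28 at 24 h (2.66-fold, adjusted p = 0.00213). In siPKCiz it was 1.21 ± 0.28 at 8 h (2.31-fold, adjusted p = 0.0121) and 1.32 ± 0.28 at 24 h (2.50-fold, adjusted p = 0.00423). The 8 h rise in siControl was called under each of the 17 alternatives that were run. The 24 h rise in siControl lost its call without replicate 2 (1.21, adjusted p = 0.0878) or replicate 3 (1.34, adjusted p = 0.087) in all groups. In siPKCiz the 8 h call ended without replicate 2 (1.43) or 3 (1.33) and without the single siPKCiz replicate 1 array at 8 h (0.94) or untreated (1.14), and the 24 h call ended without replicate 3 (1.51, adjusted p = 0.0554).

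From high to low, the mean log2 levels of KDM6B were 10.68 ± 0.11 (SD, n = 3) in siControl at 8 h, 10.32 ± 0.70 in siControl at 24 h, 9.94 ± 0.47 in siPKCiz at 24 h, 9.83 ± 0.49 in siPKCiz at 8 h, 8.91 ± 0.24 in untreated siControl and 8.62 ± 0.12 in untreated siPKCiz. Neighbours among the 4 treated groups did not differ beyond their spread: 24 h against 8 h gave -0.35 ± 0.28 in siControl and 0.11 ± 0.28 in siPKCiz. Between the lowest treated group and untreated siControl there was no overlap, with 690.2 as the lowest value of the former and 549.6 as the highest of the latter. The untreated groups overlapped.

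KDM6A, the X-linked H3K27 demethylase also known as UTX, had the narrowest range of the 9, 0.20, and was called in 0 of the 12 comparisons. Its intensity in siControl was 1105, 1098 and 1183 without ligand, 1264, 1268 and 1271 at 8 h, and 1272, 1332 and 1277 at 24 h. With both kinases silenced it was 1139, 1167 and 1107 without ligand, 1405, 1229 and 1142 at 8 h, and 1098, 1278 and 1183 at 24 h. All 6 treated siControl arrays lay above the 3 untreated ones, by 0.17 ± 0.079 at 8 h (adjusted p = 0.212) and 0.20 ± 0.079 at 24 h (adjusted p = 0.125), whereas the siPKCiz groups overlapped. KDM6A and KDM6B thus had changes of 0.17 and 1.76 in the same 8 h comparison.

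KDM7A, which acts on H3K9 and H3K27, was the second most variable member, with group means spanning 1.76 on the log2 scale. Its intensity in siControl was 264, 266 and 317 in replicates 1, 2 and 3 without ligand, 596, 791 and 811 at 8 h, and 318, 604 and 681 at 24 h. In siPKCiz it was 314, 149 and 209.9 without ligand, 399.8, 312 and 322 at 8 h, and 379, 279 and 290.3 at 24 h. The siControl arrays separated fully at both times, although replicate 1 at 24 h (318) was barely above the highest untreated array (317), and in siPKCiz the high untreated value of replicate 1 overlapped the treated arrays. KDM7A rose in siControl by 1.37 ± 0.25 at 8 h (2.58-fold, adjusted p = 0.00124), under all 17 alternatives, and by 0.85 ± 0.25 at 24 h (1.80-fold, adjusted p = 0.032). The 24 h call ended without replicate 2 (0.68) or 3 (0.72), and without a single siControl array in 4 cases: untreated replicate 1 (0.80) or 2 (0.81), and 24 h replicate 2 (0.72) or 3 (0.64). In siPKCiz the changes were 0.68 ± 0.25 (adjusted p = 0.136) and 0.55 ± 0.25 (adjusted p = 0.194), and without replicate 1 they were 0.84 (adjusted p = 0.000846) and 0.69 (adjusted p = 0.0027).

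Ordered by mean log2 level, KDM7A stood at 9.50 ± 0.25 (SD, n = 3) in siControl at 8 h, 8.99 ± 0.59 in siControl at 24 h, 8.42 ± 0.19 in siPKCiz at 8 h, 8.29 ± 0.24 in siPKCiz at 24 h, 8.14 ± 0.15 in untreated siControl and 7.74 ± 0.54 in untreated siPKCiz. The 24 h level differed from the 8 h level by -0.52 ± 0.25 in siControl (adjusted p = 0.382) and by -0.13 ± 0.25 in siPKCiz (adjusted p = 0.897), so within an arm the times were not separated. The treated siPKCiz groups, with values from 279 to 399.8, overlapped untreated siControl, which reached 317.

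**Figure D2:**
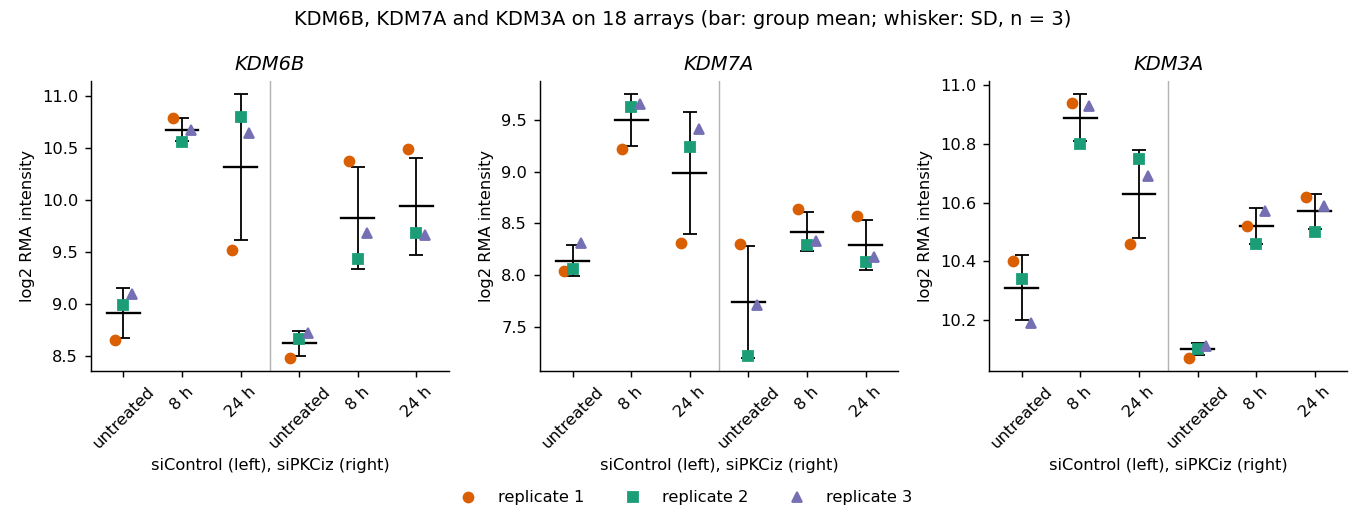
Log2 RMA intensity (vertical axis) of KDM6B, KDM7A and KDM3A on each of the 18 arrays by group; symbols mark replicate numbers, horizontal bars group means and whiskers the SD of 3 arrays. Replicate 1 of KDM6B is the lowest array of siControl at 24 h (734) and the highest of siPKCiz at 24 h (1436), while the KDM3A values of siPKCiz lie close together in each group.

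KDM3A, an H3K9 demethylase that is a known target of hypoxia-inducible factor, rose in each arm at both times. Its intensity in siControl was 1352, 1298 and 1169.9 without ligand, 1969.9, 1779 and 1949 at 8 h, and 1410.3, 1722 and 1652 at 24 h. The siPKCiz arrays read 1076, 1101 and 1107 without ligand, 1470.2, 1409 and 1522 at 8 h, and 1577, 1452 and 1546 at 24 h. Treated and untreated arrays did not overlap in either arm. The rise was 0.58 ± 0.082 at 8 h in siControl (1.49-fold, adjusted p = 0.000143), 0.32 ± 0.082 at 24 h in siControl (1.25-fold, adjusted p = 0.0132), 0.42 ± 0.082 at 8 h in siPKCiz (1.34-fold, adjusted p = 0.00333) and 0.48 ± 0.082 at 24 h in siPKCiz (1.39-fold, adjusted p = 0.000751). The 8 h rise in siControl and the 24 h rise in siPKCiz were called under all 17 alternatives run for each. At 24 h in siControl the call ended without replicate 2 (0.28) or 3 (0.23), without the single arrays untreated replicate 3 (0.26), 24 h replicate 2 (0.26) or 24 h replicate 3 (0.29), and with only the arrays compared in the fit (adjusted p = 0.0939); at 8 h in siPKCiz it ended without replicate 2 (0.45) or 3 (0.40).

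In mean log2 level KDM3A was highest in siControl at 8 h (10.89 ± 0.08, SD, n = 3), followed by siControl at 24 h (10.63 ± 0.15), siPKCiz at 24 h (10.57 ± 0.06) and 8 h (10.52 ± 0.06), and was lowest in untreated siControl (10.31 ± 0.11) and untreated siPKCiz (10.10 ± 0.02). The 24 h level in siControl was lower than the 8 h level on every array, by -0.26 ± 0.082, but this was not called (adjusted p = 0.127). The middle 3 groups overlapped.

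Among the KDM4 members KDM4A, KDM4B and KDM4C, which act on H3K9 and H3K36, KDM4C was the one called after TGFβ. Its intensity in siControl was 428, 419 and 409 without ligand, 375, 289.5 and 321 at 8 h, and 462, 455 and 406 at 24 h. In siPKCiz it was 437, 502 and 480.2 without ligand, 427, 397 and 421 at 8 h, and 369, 469 and 467 at 24 h. The 3 siControl arrays at 8 h were the 3 lowest siControl values of the gene. KDM4C fell by 0.36 on the log2 scale at 8 h in siControl (SE 0.10, adjusted p = 0.0284), and its level at 24 h was 0.43 ± 0.10 above that at 8 h (adjusted p = 0.0328), in a comparison where 1 of 9 members and 2.41% of all genes were called. In siPKCiz the 8 h change was -0.19 ± 0.10 (adjusted p = 0.377), and 24 h against 8 h called 0 of 9 members by limma, beside 0.805% of all genes; at an unadjusted p under 0.05 it was also 0 members. Both KDM4C calls were near the threshold. That at 8 h ended, among other alternatives, without replicate 2 (-0.27) or 3 (-0.36), with only the arrays compared (adjusted p = 0.0597), and without the single siControl arrays untreated replicate 1 (-0.34), 2 (-0.36) or 3 (-0.37), or 8 h replicate 2 (-0.27) or 3 (-0.35). That of 24 h against 8 h ended, among others, without replicate 2 (0.32) or 3 (0.48), with only the arrays compared (adjusted p = 0.112), and without 8 h replicate 2 (0.34) or 3 (0.42) or 24 h replicate 1 (0.40) or 2 (0.41).

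KDM4A intensities in siControl were 702, 653 and 671 without ligand, 679, 613 and 686 at 8 h, and 666, 692 and 681 at 24 h. In siPKCiz they were 789, 728 and 817 without ligand, 741, 829 and 823 at 8 h, and 716, 659.9 and 764 at 24 h. KDM4A stayed within 0.13 of its untreated level after TGFβ in each arm, with no call. KDM4B was dim, with all 18 values between 137 and 202, near the array medians. Its siControl values were 140.4, 145 and 138 without ligand, 158, 175 and 155 at 8 h, and 137, 173 and 166 at 24 h. The siPKCiz values were 202, 162 and 175 without ligand, 194, 163 and 183 at 8 h, and 173, 180.0 and 180.3 at 24 h. Its TGFβ changes ran from -0.01 to 0.20, with SE 0.098, and none was called.

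The H3K4 demethylases KDM5A and KDM5B moved upward by small amounts. KDM5A had intensities of 901, 965 and 956 in untreated siControl, 1184, 1025 and 1129 at 8 h and 1069, 1208 and 1127 at 24 h. In siPKCiz they were 898, 951 and 921 without ligand, 1118, 1055 and 1039.5 at 8 h, and 1083, 1088 and 1014 at 24 h. Every treated array of KDM5A was above every untreated array of its arm. The change was 0.24 ± 0.074 at 8 h (adjusted p = 0.0417) and 0.27 ± 0.074 at 24 h (adjusted p = 0.0204) in siControl, and 0.21 (adjusted p = 0.103) and 0.20 (adjusted p = 0.094) in siPKCiz. The 8 h call ended, among other alternatives, without replicate 1 (0.16), 2 (0.32) or 3 (0.24), with only the arrays compared (adjusted p = 0.166), and without untreated replicate 1 (0.21), 2 (0.26) or 3 (0.25) or 8 h replicate 1 (0.19) or 3 (0.23). The 24 h call ended without replicate 2 (0.24) or 3 (0.29), with only the arrays compared (adjusted p = 0.102), and without untreated replicate 1 (0.24) or 24 h replicate 2 (0.22) or 3 (0.27).

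KDM5B was nearly constant among untreated siControl arrays, at 1834, 1831 and 1829, with 2102, 2286 and 2328 at 8 h and 1917, 2342 and 2321 at 24 h. Under silencing the values were 1685, 1661 and 1727 without ligand, 2130.1, 1948 and 1881 at 8 h, and 2408, 1971 and 2033 at 24 h. Treated and untreated arrays did not overlap in either arm. It rose by 0.29 ± 0.090 at 8 h in siControl (adjusted p = 0.0449) and by 0.33 ± 0.090 at 24 h in siPKCiz (adjusted p = 0.0217); the other TGFβ changes were 0.25 (adjusted p = 0.0766) at 24 h in siControl and 0.23 (adjusted p = 0.161) at 8 h in siPKCiz. The siControl call ended, among other alternatives, without replicate 2 (0.27) or 3 (0.26), with quantile normalization (adjusted p = 0.0512), median centring (adjusted p = 0.0533) or only the arrays compared (adjusted p = 0.0703), and without untreated replicate 1, 2 or 3 (each 0.29) or 8 h replicate 2 (0.27) or 3 (0.26). The siPKCiz call ended without replicate 1 (0.24), 2 (0.37) or 3 (0.38), and without untreated replicate 1 (0.33), 2 (0.32) or 3 (0.35) or 24 h replicate 1 (0.24).

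**Figure D3:**
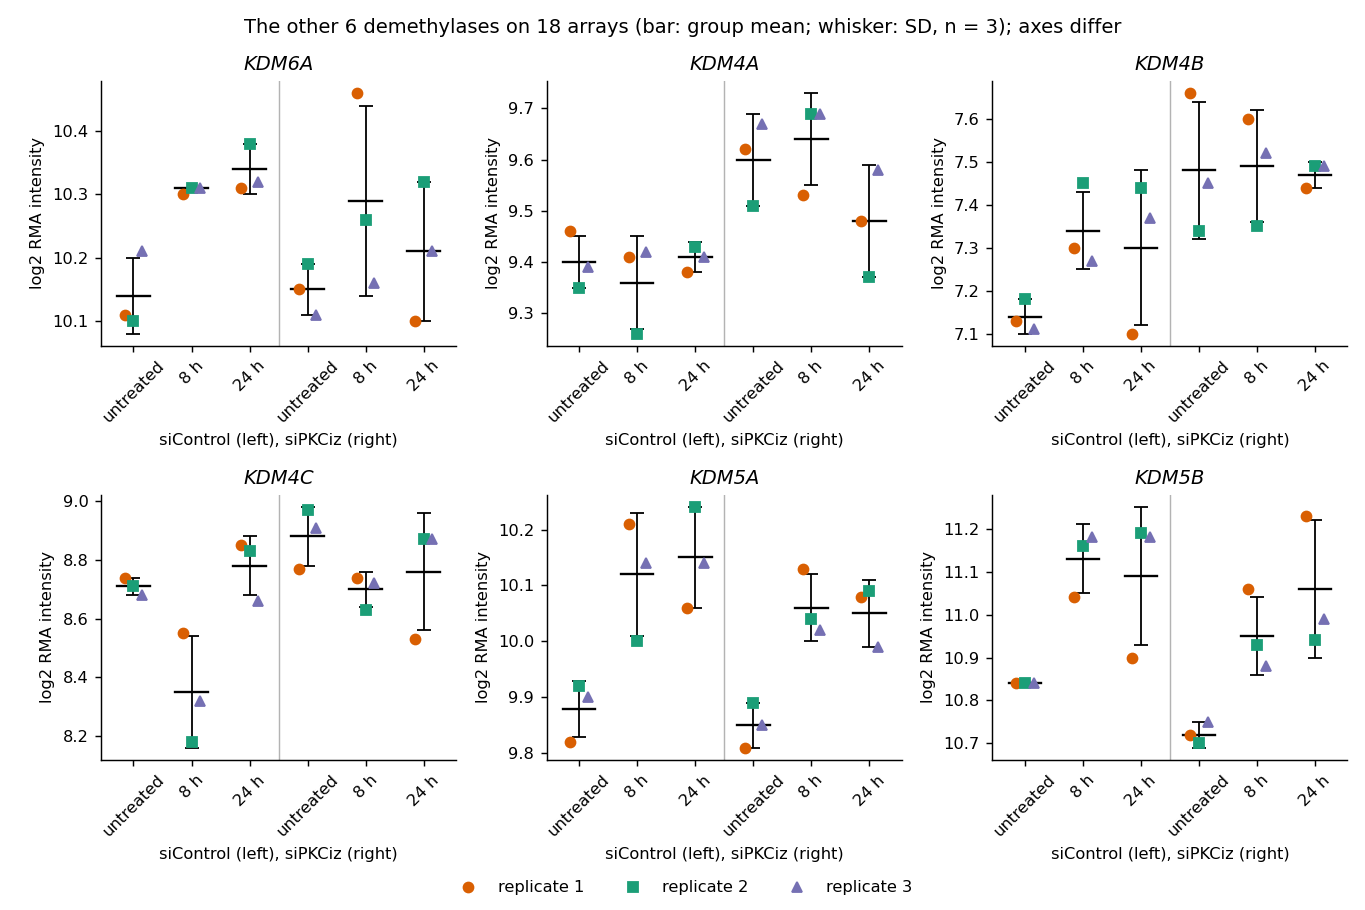
Log2 RMA intensity (vertical axes, which differ between panels) of the other 6 demethylases on the 18 arrays by group, with replicate symbols, group means as bars and the SD of 3 arrays as whiskers. The siControl arrays of KDM4C are lowest at 8 h (289.5 to 375), and the untreated siControl arrays of KDM5B lie within 1829 to 1834.

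Silencing of the atypical PKCs was compared with control siRNA separately without ligand, at 8 h and at 24 h, and also averaged over these 3 conditions. At 8 h of TGFβ, KDM7A and KDM3A were lower and KDM4A was higher in siPKCiz, 3 of 9 members beside 5.41% of all genes called. In untreated cells and at 24 h 0 of 9 members were called by limma, beside 3.58% and 3.19% of all genes, although 3 members and 1 member had an unadjusted p under 0.05. As the mean of the 3 conditions KDM6B, KDM7A and KDM3A were lower and KDM4A and KDM4B higher, 5 of 9 members, where 19.9% of all genes were called, 11.8% higher and 8.17% lower. Members whose arms did not overlap numbered 5 of 9 in untreated cells, 5 at 8 h and 0 at 24 h, beside 24.2%, 24.1% and 17.8% of all genes.

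Without replicate 1, in which PRKCZ differed least between the arms, more members and more genes were called. The members called became 2 in untreated cells (8.23% of all genes), 6 at 8 h (19.0%), 2 at 24 h (11.3%) and 6 in the mean (31.4%). KDM6B and KDM7A were then lower in siPKCiz in each of the 3 conditions. The additional calls at 8 h were KDM6B, KDM4C and KDM5B. KDM4B lost its call in the mean (0.14, adjusted p = 0.0681), and KDM4C and KDM5B gained one. Leaving out replicate 2 instead gave 0, 0, 0 and 1 members in the same order, beside 0.163%, 0.19%, 0.0979% and 4.55% of all genes. Leaving out replicate 3 gave 0 members each time, beside 0.147%, 0.131%, 0.109% and 4.56%. Each of these fits had 2 arrays a group.

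KDM7A was lower in siPKCiz by -1.08 ± 0.25 at 8 h (2.12-fold, adjusted p = 0.0178), where all 3 siPKCiz arrays (312 to 399.8) lay under all 3 siControl arrays (596 to 811). Its differences were -0.39 ± 0.25 in untreated cells (adjusted p = 0.449) and -0.70 ± 0.25 at 24 h (adjusted p = 0.161), and the mean was -0.72 ± 0.15 (adjusted p = 0.00164). By replicate number, a label that did not pair the arrays, siPKCiz stood at 67.1%, 39.5% and 39.7% of siControl in replicates 1, 2 and 3 at 8 h. At 24 h it stood at 119%, 46.3% and 42.6%. In replicate 1 the difference was thus smaller at 8 h and turned upward at 24 h, as it did in untreated cells, at 119%, 56.1% and 66.2%. Without replicate 1 the differences were -0.71 (adjusted p = 0.00251), -1.34 (adjusted p = 7.04e-06) and -1.17 (adjusted p = 2.41e-05) in untreated cells, at 8 h and at 24 h, and the mean was -1.07 (adjusted p = 4.81e-08). That fit left out the arrays that turned upward, so it is no independent support. It had 2 arrays a group, and its SE in each condition was 0.13, against 0.25 with all arrays. The 8 h call ended without replicate 2 (-0.95) or 3 (-0.96) in all groups, and without 8 h replicate 2 or 3 of siControl (-1.02 and -1.0) or of siPKCiz (-1.02 and -1.04); the call of the mean ended without replicate 2 (-0.54) or 3 (-0.56).

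KDM6B differed by -0.29 ± 0.28 in untreated cells (adjusted p = 0.636), -0.85 ± 0.28 at 8 h (adjusted p = 0.0875) and -0.38 ± 0.28 at 24 h (adjusted p = 0.593), with a mean of -0.51 ± 0.16 (adjusted p = 0.0348). At 8 h the arms did not overlap, with 690.2 to 1331 in siPKCiz and 1514 to 1769 in siControl. By replicate number, a label that did not pair the arrays, siPKCiz stood at 75.2%, 45.6% and 50.2% of siControl at 8 h. At 24 h it stood at 196%, 46.0% and 50.5%. In these ratios replicates 2 and 3 were alike at both times and replicate 1 was opposite at 24 h. Without replicate 1 the differences were -0.36 (adjusted p = 0.0368), -1.06 (adjusted p = 4.52e-06) and -1.05 (adjusted p = 4.66e-06), and the mean was -0.82 (adjusted p = 4.01e-08). That fit left out the arrays that ran opposite at 24 h, so it is no independent support. It had 2 arrays a group, and its SE in each condition was 0.099, against 0.28 with all arrays. The call of the mean over all arrays was fragile: it ended, among other alternatives, without replicate 2 (-0.33) or 3 (-0.36), and on leaving out any of 12 single arrays, with values from -0.51 to -0.43. Those were all arrays of replicate 3 except untreated siPKCiz, all of replicate 2 except siControl at 8 h, and in replicate 1 untreated siPKCiz and siControl at 8 h.

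**Figure D4:**
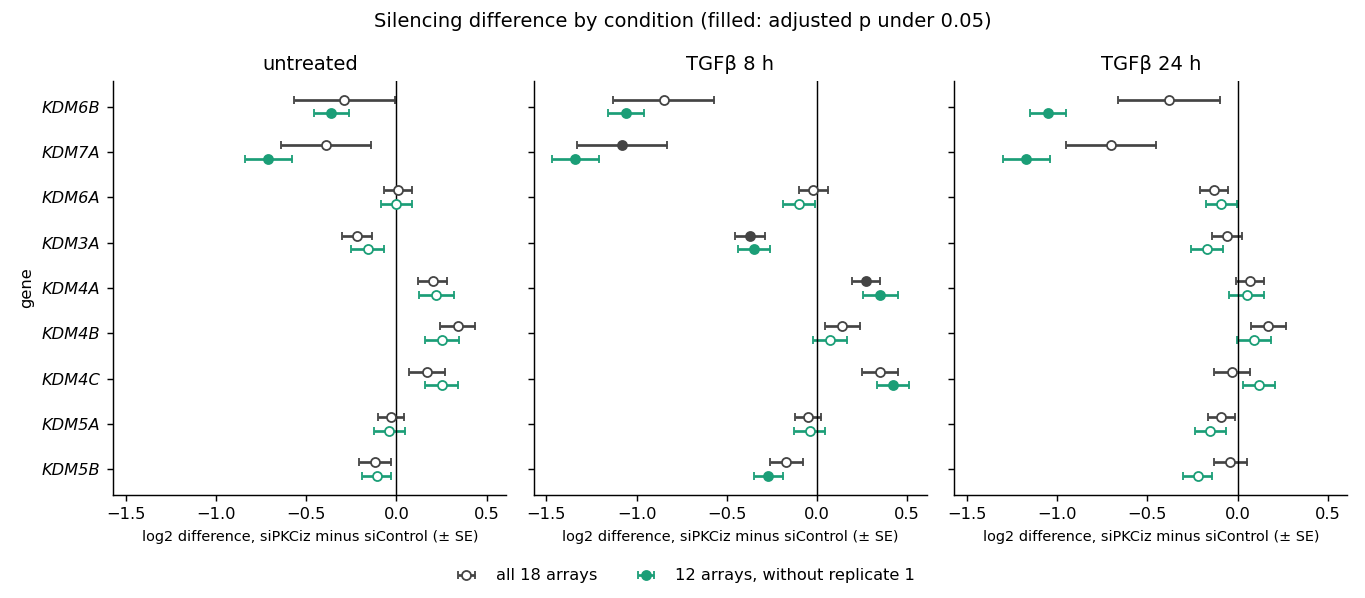
Log2 difference between the arms (horizontal axis, siPKCiz minus siControl) for the 9 demethylases in untreated cells and at 8 h and 24 h of TGFβ; dark points use all 18 arrays, green points the 12 arrays without replicate 1, bars are ± SE and filled points were called at adjusted p under 0.05. For KDM6B at 24 h the estimate goes from -0.38 with all arrays to -1.05 without replicate 1, and for KDM7A from -0.70 to -1.17, while KDM6A stays within 0.13 of 0.

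KDM3A was lower in siPKCiz by -0.37 ± 0.082 at 8 h (1.29-fold, adjusted p = 0.0137) and by -0.22 ± 0.048 in the mean (adjusted p = 0.00341), and without replicate 1 these were -0.35 (adjusted p = 0.0151) and -0.23 (adjusted p = 0.00372). At 24 h the arms overlapped and differed by -0.06 ± 0.082. The 8 h call ended without replicate 2 (-0.39) or 3 (-0.38), without siPKCiz replicate 2 at 8 h (-0.34) and without siControl replicate 3 at 8 h (-0.35), and that of the mean without replicate 2 (-0.19) or 3 (-0.23). KDM4A was higher in siPKCiz by 0.27 ± 0.078 at 8 h (1.21-fold, adjusted p = 0.0462) and by 0.18 ± 0.045 in the mean (adjusted p = 0.00739), and without replicate 1 these were 0.35 (adjusted p = 0.0209) and 0.21 (adjusted p = 0.0104). Its 8 h call ended in 11 of the 17 alternatives, among them quantile normalization (0.21), median centring (0.23), limma with trend and robust settings (adjusted p = 0.0543), only the arrays compared (adjusted p = 0.13), leaving out replicate 2 (0.20) or 3 (0.28), and leaving out 8 h replicate 2 or 3 of siControl (0.22 and 0.30) or of siPKCiz (each 0.25). The call of its mean ended without replicate 2 (0.19) or 3 (0.15). KDM4B was higher by 0.22 ± 0.056 in the mean (adjusted p = 0.01), and besides replicate 1 this call needed replicate 3 (0.21, adjusted p = 0.193, without it). KDM4C was 0.35 ± 0.10 higher at 8 h (adjusted p = 0.0574; 0.42 with adjusted p = 0.00418 without replicate 1), with no overlap between the arms. KDM6A, KDM5A and KDM5B had mean differences of -0.04, -0.06 and -0.11, and none was called with all arrays.

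Whether the response to TGFβ itself differed between the arms was tested as an interaction, the TGFβ change in siPKCiz minus that in siControl. By limma 0 of 9 members and 0% of all genes were called at either time; at an unadjusted p under 0.05 there were 0 members and 625 genes at 8 h, and 0 members and 705 genes at 24 h. For KDM7A the interaction was -0.69 ± 0.36 at 8 h and -0.30 ± 0.36 at 24 h, and for KDM6B it was -0.55 ± 0.40 and -0.09 ± 0.40, each with an adjusted p of 1. The larger TGFβ changes of KDM7A in siControl are therefore not shown to differ from those in siPKCiz. Without replicate 1, 1 of 9 members was called at each time, beside 0.316% of all genes at 8 h and 0.435% at 24 h, and it was KDM6B both times, at -0.71 ± 0.14 (adjusted p = 0.0453) and -0.70 ± 0.14 (adjusted p = 0.0398). KDM7A then stood at -0.62 (adjusted p = 0.279) and -0.46 (adjusted p = 0.59). That fit left out the arrays in which KDM6B ran opposite at 24 h, so its KDM6B calls are no independent support. Without replicate 2 or replicate 3 instead, 0 members and 0% of all genes were called at either time. All these values rest on 2 arrays a group.

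For the 3 members with the widest range of group means, the 4 genes with the most similar pattern were taken by Pearson's r of log2 values over the 18 arrays, which share TGFβ treatment and replicate differences. KDM6B was most like NUAK1 (r = 0.982), PDGFB (0.980), TMEM88 (0.978) and ARHGEF40 (0.976), and after removal of the group means the values were 0.93, 0.93, 0.93 and 0.87. KDM7A was most like CDC42SE1 (0.966), VPS54 (0.950), PNP (0.943) and FRMD8 (0.942), with 0.89, 0.82, 0.83 and 0.86 after that removal. The pattern of KDM3A was most like HEY1 (0.962), ASAP2 (0.947), PGM2L1 (0.945) and IL11 (0.944), with 0.64, 0.78, 0.70 and 0.49 after it. None of these 12 is another JmjC gene. Among the members, KDM6B had r = 0.942 with KDM5B, 0.914 with KDM3A, 0.912 with KDM5A and 0.857 with KDM7A, but -0.565 with KDM4C and -0.376 with KDM4A. Without the group means these 6 values were 0.84, 0.55, 0.67, 0.61, -0.26 and -0.13. PDGFB, a growth factor chain, changed by 1.99 and 1.66 at 8 h and 24 h in siControl.

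TMEM88 is also the next measured gene after KDM6B in RefSeq's order along the chromosome, a comparison chosen after the data were seen. Its intensity in siControl was 127, 171 and 245 without ligand, 833, 938 and 770.4 at 8 h, and 329, 810.1 and 889 at 24 h. In siPKCiz it was 154, 152 and 152 without ligand, 468, 245 and 281 at 8 h, and 728, 287 and 335 at 24 h. As for KDM6B, replicate 1 at 24 h was the lowest treated siControl array and the highest treated siPKCiz array. TMEM88 rose by 2.28 ± 0.35 at 8 h (4.85-fold, adjusted p = 0.000265) and 1.83 ± 0.35 at 24 h in siControl. In siPKCiz it changed by 1.06 at 8 h (adjusted p = 0.0859) and 1.44 at 24 h (adjusted p = 0.0115). It was lower in siPKCiz at 8 h by -1.41 ± 0.35 (adjusted p = 0.026, and -1.7 without replicate 1, adjusted p = 2.1e-06). The arms differed by -0.19 in untreated cells (adjusted p = 0.82) and -0.59 at 24 h (adjusted p = 0.47). The fit without replicate 1 left out the arrays that ran opposite at 24 h, so it is no independent support. On the other side of KDM6B, DNAH2 changed by 0.12 at 8 h and 0.05 at 24 h in siControl, neither called. The neighbours of KDM7A were SLC37A3, called at 8 h (0.29), and PARP12 (0.12, not called), and those of KDM3A were REEP1 (0.45) and RNF103 (-0.02), neither called.

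**Figure D5:**
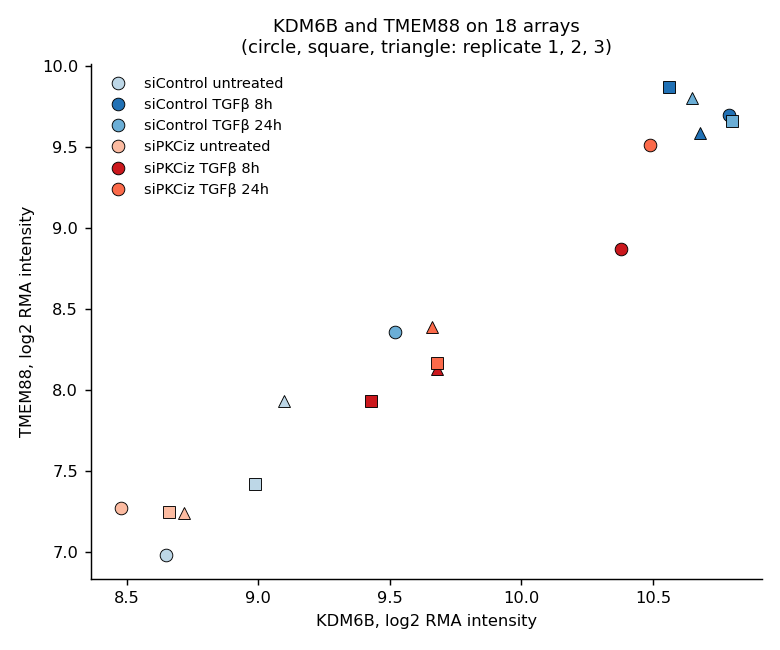
Log2 RMA intensity of KDM6B (horizontal axis) and of its chromosomal neighbour TMEM88 (vertical axis) on the 18 arrays; colour marks the group and the symbol the replicate number. The arrays run along 1 diagonal (r = 0.978), with replicate 1 of siControl at 24 h (734 and 329 in intensity) among the siPKCiz arrays. Replicate 1 of siPKCiz at 24 h (1436 and 728) lies above all other siPKCiz arrays. It lies below the remaining treated siControl arrays, which start at 1514 and 770.4.

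Of 20 further genes with a JmjC domain 19 were measured, and 5 rose and 1 fell at 8 h in siControl, 2 rose and 1 fell at 24 h, and in siPKCiz 1 rose at 8 h and 2 at 24 h. JARID2, a catalytically inactive JmjC protein that works with PRC2, changed most. Its intensity went from 1044, 1127 and 1169 in untreated siControl to 2071, 1966 and 2172 at 8 h and 1744, 2577 and 2389 at 24 h. The siPKCiz intensities were 900.0, 920.0 and 1025 without ligand, 2057, 1379.7 and 1536 at 8 h, and 2287, 1887 and 1954 at 24 h. JARID2 rose by 0.89 ± 0.14 (adjusted p = 0.000299) and 0.99 ± 0.14 (adjusted p = 8.63e-05) in siControl and by 0.79 and 1.10 in siPKCiz, and its mean silencing difference was not called with all arrays (-0.23, adjusted p = 0.0525) but was without replicate 1 (-0.37, adjusted p = 8.3e-05). JMJD1C, a relative of KDM3A, rose by 0.40 and 0.47 in siControl, JMJD6, an oxygenase, rose at 8 h by 0.37, KDM4D, a KDM4 enzyme, fell at 8 h by 0.42, and HR, a further KDM3 relative, fell at 24 h by 0.39. In the mean silencing comparison 2 of the 19 were higher and 4 lower, the latter being RIOX1 (-0.29), KDM4D (-0.20), HIF1AN (-0.20) and KDM5C (-0.20). Without replicate 1 RIOX1 stood at -0.54 and KDM4D at -0.31. JMJD7 is not analysed here.

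The flavin-dependent demethylase KDM1A, which removes H3K4 methylation by another chemistry, rose at 8 h in siControl by 0.29 (adjusted p = 0.0433). A list of 9 genes held the flavin-dependent demethylases, KDM1A included, and genes of their complexes. Of these 1 rose, KDM1A itself, and 2 fell at 8 h, and 1 rose and 1 fell at 24 h in siControl. GSE1 fell by 0.62 and 0.42, PHF21A fell by 0.38 at 8 h, and RCOR3 rose by 0.28 at 24 h. In siPKCiz 0 rose and 1 fell at 8 h, and 1 rose and 1 fell at 24 h. On average 4 were higher than in siControl, among them RCOR1 (0.38), GSE1 (0.22) and KDM1A itself (0.20).

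Next came the enzymes that set the marks. Of 12 genes of PRC2 and H3K27 methylation, a list that also holds JARID2, 1 rose in each of the 4 TGFβ comparisons, JARID2 each time, and 0 fell; EZH2, the PRC2 methyltransferase, changed by -0.18 at 8 h (adjusted p = 0.207). Averaged over conditions, silencing left EZH1 (0.40), EED (0.20) and SUZ12 (0.17) higher and PHF19 (-0.22) lower, 4 higher and 1 lower in all, and without replicate 1 EZH1 stood at 0.62 and SUZ12 at 0.29. Of 7 H3K9 methyltransferases 2 fell at 8 h in siControl, EHMT2 by 0.48 and SETDB1 by 0.33, and 0 were called at 24 h or in siPKCiz. Their mean silencing difference was called for PRDM2 (0.22) and SETDB1 (0.20). Among 20 genes of H3K4 methyltransferase complexes 1 rose at each time in siControl, SETD7 at 8 h (0.28) and KMT2C at 24 h (0.38), 1 and 2 rose in siPKCiz, and 7 were higher with silencing, led by NCOA6 (0.28), SETD7 (0.23), RBBP5 (0.21) and PAXIP1 (0.20). Of 6 H3K36 methyltransferases 5 were measured, 0 were called after TGFβ in either arm, and NSD1 (0.20), SETMAR (0.16) and SETD2 (0.14) were higher with silencing, SETD2 not without replicate 1 (0.12, adjusted p = 0.0764); ASH1L is not analysed here.

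Other dioxygenases that need 2-oxoglutarate were examined beside the demethylases. Of 13 measured TET and prolyl or lysyl hydroxylase genes 1 rose at 8 h and 4 at 24 h in siControl, all of them collagen-modifying: P4HA2 at both times (0.33 and 0.53), and PLOD1 (0.35), PLOD2 (0.33) and PLOD3 (0.31) at 24 h. In siPKCiz 2 rose and 1 fell at 8 h and 1 rose and 1 fell at 24 h. Silencing left EGLN1, an oxygen-sensing hydroxylase, higher by 0.56 and EGLN3 by 0.17, and P4HA1 lower (-0.20). Of 24 measured targets of hypoxia-inducible factor, the list to which KDM3A is usually counted, 4 rose and 1 fell at 8 h and 4 rose and 3 fell at 24 h in siControl, while 3 rose and 3 fell at each time in siPKCiz. ANGPTL4 (3.02 and 1.48), VEGFA (1.49 and 0.92) and NDRG1 (0.66 at 8 h) were among those that rose, and ALDOC (-0.92 and -1.0) and BNIP3 (-0.54 at 24 h) among those that fell. The median change of the list was -0.09 at 8 h, beside 0.58 for KDM3A. With silencing 4 of the 24 were higher, among them SLC2A1 (0.48) and ADM (0.28), and 4 lower, among them SLC2A3 (-0.75) and VEGFA (-0.49, and -0.78 without replicate 1, adjusted p = 1.03e-07). Of 13 measured enzymes that supply or use 2-oxoglutarate, IDH1 fell at 8 h by 0.31, GOT1 fell at 24 h by 0.37 and D2HGDH fell at 24 h by 0.24 in siControl, 0 rose in any TGFβ comparison, 1 fell at 8 h and 0 at 24 h in siPKCiz, and IDH2 (0.36) and GOT1 (0.35) were higher with silencing.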

How the data were processed

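A549 RNA was measured on 18 arrays, 3 in each of 6 groups, as given in the sample labels. The deposited values are intensity per probe set; the authors used RMA and Partek, per the submitters' processing notes, with versions not given in the sources used here. They were taken as linear from their range (21.2 to 51230.0), and log2 was taken once. Of 28869 probe sets, 19310 had 1 symbol, 1752 several and 7807 none in the platform annotation; the brightest by mean was kept for each of 18377 genes, leaving out 933. Group means were fitted with limma 3.58.1 in R 4.3.3 over all 18 arrays (12 residual degrees of freedom), with Benjamini-Hochberg adjustment over all genes in each of 12 comparisons and a threshold of 0.05; no filter was applied, and the number of arrays limits the precision. The fit was tested on simulated data. Alternatives were a replicate block, a filter on dim genes (log2 of at least 7 in 3 arrays), quantile normalization, median centring, trend and robust settings, array weights, all single-symbol probe sets, only the arrays compared, and leaving out replicates or arrays; leaving out replicate 1 for genes other than members was chosen after seeing the data. Named were all members, both kinases, CDH1, up to 4 called genes of each list with the largest change, and the 4 genes most like each of the 3 widest members; other names were chosen after their values were seen. The members and lists were chosen with earlier results of these data known. Promoters and chromosomal order came from RefSeq (GRCh38.p14).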

Additional observations from a re-analysis of the deposited data

How the results depend on the processing

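Of 24 changes called for a member with all arrays, 0 changed sign under any alternative. Over 187 values from the 8 alternatives that keep all replicates, 169 kept their call and 18 lost it; 7 of these came from fitting only the arrays compared, 6 from the replicate block, 2 each from quantile normalization and median centring, and 1 from trend and robust settings. The replicate block ended the calls of KDM4C (adjusted p = 0.0526), KDM5A (0.0754) and KDM5B (0.0783) at 8 h in siControl, KDM4C at 24 h against 8 h (0.0681), and, for silencing, KDM4A at 8 h (0.0653) and the KDM6B mean (0.055). Leaving out replicate 1 everywhere ended 3 of the 24 calls, replicate 2 ended 18 and replicate 3 ended 20, and leaving out 1 array ended 57 of 204. The members called for TGFβ at 8 h in siControl went from 6 to 3 with the replicate block or with only the arrays compared, those at 24 h from 4 to 2 with only the arrays compared, and the 1 member of 24 h against 8 h in siControl to 0 with either. For silencing, array weights gave 3 members in untreated cells, 5 at 8 h and 1 at 24 h, and the filter on dim genes gave 1 in untreated cells. Leaving out replicates or single arrays gave 3 to 5 members at 8 h and 0 to 5 at 24 h in siControl, 0 to 3 and 1 to 3 in siPKCiz, 0 to 1 and 0 to 0 for 24 h against 8 h in siControl and siPKCiz, 0 to 2, 0 to 6 and 0 to 2 for silencing in untreated cells, at 8 h and at 24 h, 0 to 6 for its mean, and 0 to 1 for each interaction. The cause of these shifts was not tested, beyond the fewer arrays that leaving out leaves. Replicate numbers did not pair the arrays: of 45 same-numbered pairs of arrays in different groups 7 had deviations correlated above 0.1 (median -0.058), and 0 arrays correlated best with their own number. The median was -0.282 among replicate 1 arrays (lowest -0.514), 0.003 among replicate 2 and -0.058 among replicate 3. Replicate 1 arrays thus tended to deviate in opposite directions, and the cause was not tested. Using another probe set of a member could not be run, since each had 1, and only the arrays compared is the same fit for the mean over conditions. With 3 arrays a group, changes near the SE of 0.074 to 0.28 are not detectable.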
